A study of Mus musculus with 13 samples.

Results

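The loci of Socs1, Cish, Socs2 and Cradd were examined for STAT3 binding in activated mouse B cells. The genes were chosen by their peaks in these same data, that is, by earlier results that gave Socs1 and Cish sites with IL-21, so their peaks are described here and not tested. Every peak that overlapped the RefSeq span of a gene plus 50000 bp on each side was taken. Socs2 and Cradd lie next to each other on chromosome 10, with 59765 bp between their spans, and were treated as 1 locus. The 3 loci held 32 peaks that merged into 15 regions, out of 11227 regions in the whole series.

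Naive B cells from spleen were activated over 96 h, anti-CD40 being used at 1 µg/mL and IL-4 at 12.5 ng/mL. Sorted IgM+ or IgG1+ cells, 400000 at a time, were then given anti-CD40 with IL-21 (10 ng/mL) or with IL-4 (12.5 ng/mL) for 1 h. The groups were STAT3 KO cells with IL-21, STAT3 KO cells with IL-4, WT cells with IL-21 and WT cells with IL-4, each as IgM+ and as IgG1+ cells. The 4 KO groups had 1 library each and the 4 WT groups had 2, which makes 12 libraries. The series also holds an input sample, from which no peak list was used here. All 12 libraries came from cells activated with IL-4 first. The arm with IL-21 had no IL-4 in the last hour, so gain of one cytokine and loss of the other cannot be told apart. Binding was mapped by CUT&RUN with an anti-STAT3 antibody, a method in which an antibody-tethered nuclease releases DNA around the bound protein. How STAT3 was deleted, and whether replicates came from separate mice, is not given in the sources used here. A peak list holds no expression, so neither the cell type nor the loss of STAT3 could be checked from marker genes.

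IL-21 acts through JAK1 and JAK3, which phosphorylate STAT3, and the STAT3 dimer binds DNA at palindromic sites. SOCS proteins close a feedback loop: cytokine-activated STATs switch on their genes, and the proteins dampen the receptor. SOCS1 inhibits JAK kinases directly, CISH binds phosphorylated cytokine receptors and is a classical target of STAT5, and SOCS2 is known for restraining growth hormone signalling. All 3 carry an SH2 domain and a SOCS box that recruits a ubiquitin ligase. CRADD, also called RAIDD, is a death domain adaptor that links PIDD1 to caspase-2.

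Peaks at these loci were found mostly in WT cells with IL-21. The 4 KO libraries had 2 peaks there in all, the 4 WT libraries with IL-21 had 29, and the 4 WT libraries with IL-4 had 1. Over the whole genome the KO lists held 648 to 1892 peaks each. The WT lists with IL-21 held 865 to 2034, and the WT lists with IL-4 held 623 to 1455. Of the 15 regions, 8 had a peak in at least 2 WT IL-21 libraries and in no KO and no WT IL-4 library. These 8 are called the recurrent sites below. They comprised 2 sites at Cish, 3 at Socs1 and 3 within Cradd. Socs2 had none, and no library had any peak within 50000 bp of its span. Over the whole series 6.58% of the 7461 regions found in WT cells were of this kind, and 5.56% of 21887 protein-coding genes had such a region in their window. The members were chosen with these peaks known, so nothing is read from their share.

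**Figure D1:**
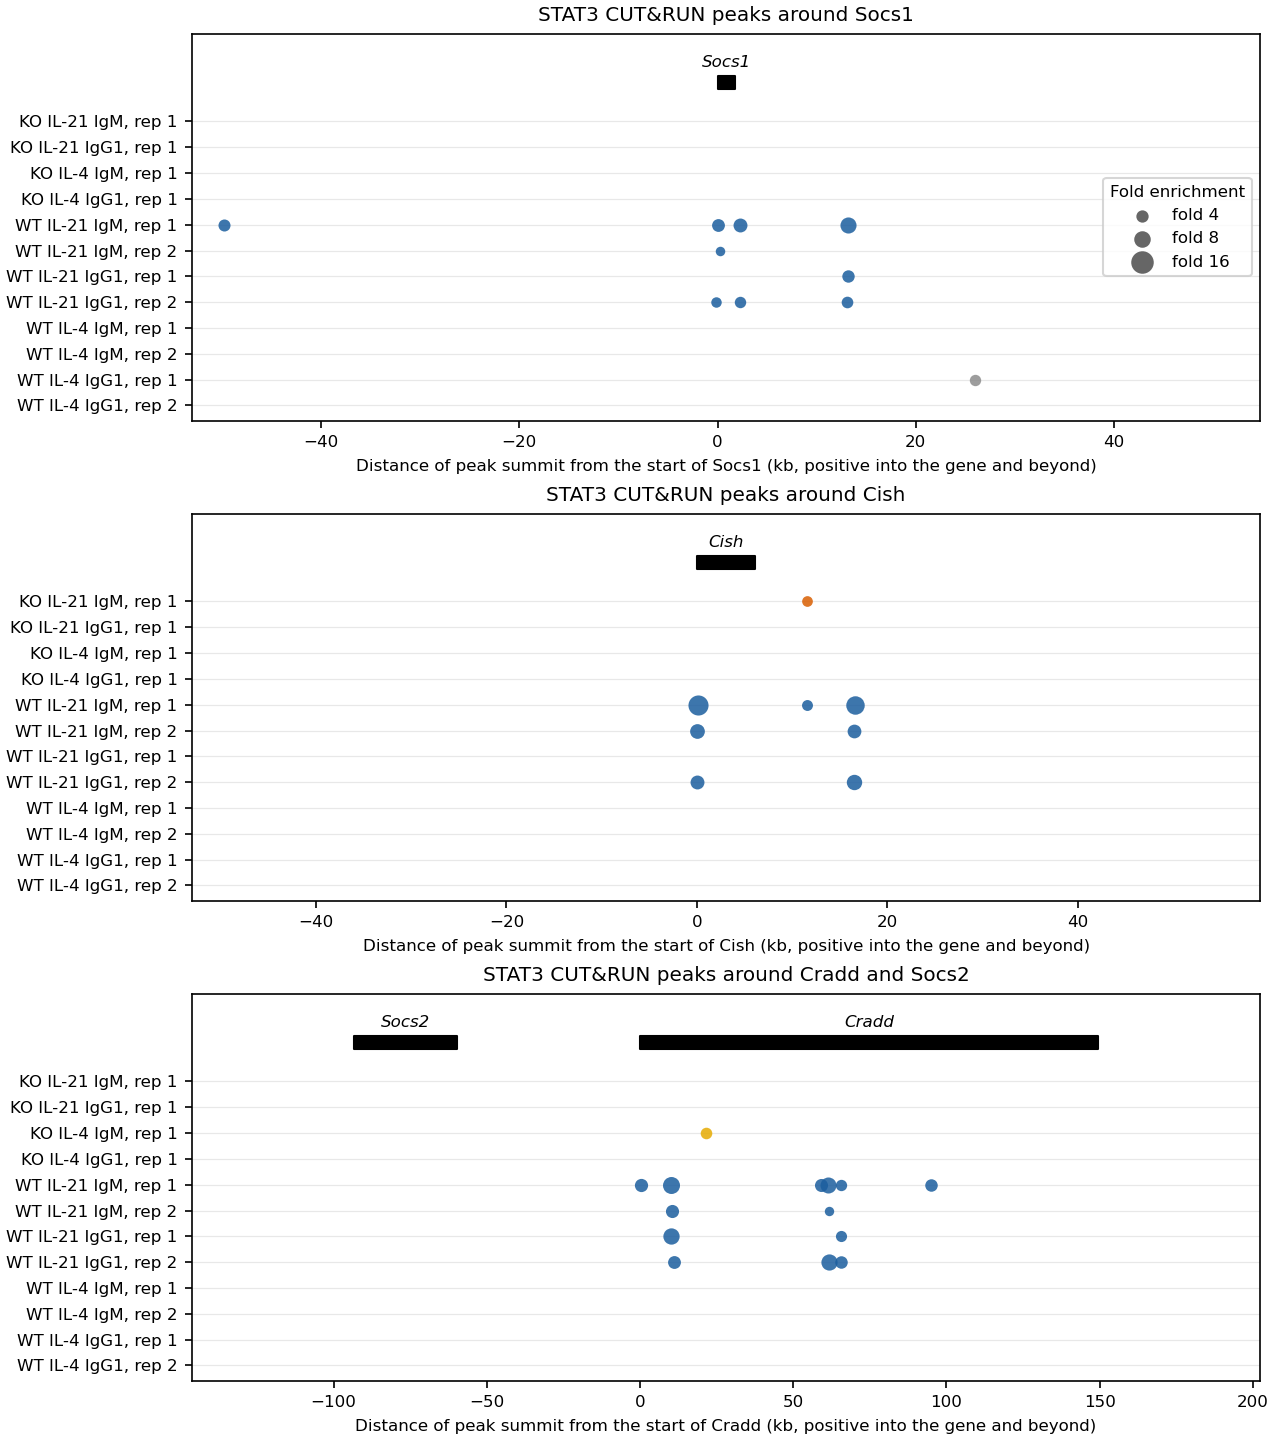
Peak summits by library (rows) against distance from the start of Socs1, Cish or Cradd in kb, with point area in proportion to the authors' fold enrichment and black bars for gene spans. Summits of the WT libraries with IL-21 line up in columns, the Socs2 side of the chromosome 10 locus is empty, and the KO libraries with IL-21 or IL-4 and the WT libraries with IL-4 hold 3 peaks in all.

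Among the recurrent sites, 2 lay at gene starts whose sequence was at hand, and these are shown because the peaks cover them. The first runs from 60 bases before the annotated Cish start to the first 30 bases of the gene (mm10, chr9:107296599-107296688, plus strand, from RefSeq on GRCm38.p6). Capitals mark the matches to TTCNNNGAA, the core of a STAT site.

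Cish start: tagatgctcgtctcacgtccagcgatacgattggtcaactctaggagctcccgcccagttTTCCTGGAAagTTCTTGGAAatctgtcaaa

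The second is the 250 bases before the annotated Socs1 start (chr16:10785537-10785786, minus strand, from RefSeq on GRCm38.p6). Capitals mark the 21 bases centred on the summit of the second WT IgG1 library with IL-21. The summits of the first and second WT IgM libraries with IL-21 lay inside the gene, outside the printed bases.

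Socs1 upstream: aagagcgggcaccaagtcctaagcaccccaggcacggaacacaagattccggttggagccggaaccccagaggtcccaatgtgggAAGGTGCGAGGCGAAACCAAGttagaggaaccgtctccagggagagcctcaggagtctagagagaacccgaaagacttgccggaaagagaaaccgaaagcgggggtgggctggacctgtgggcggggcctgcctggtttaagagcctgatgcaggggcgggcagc

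Cish (chromosome 9, 107296659 to 107302784, NCBI gene 12700) had the sites with the highest mean folds of the 3 loci. Each mean was taken over the WT IL-21 libraries that had a peak at the site, and these differed between sites. The region over its start (107295764 to 107297023) was called in 3 of the 4 WT libraries with IL-21, in none of the 4 KO libraries and in none of the 4 WT libraries with IL-4. Its fold enrichment, the authors' ratio of the fragment pileup at the summit to an expected background, with 1 added to each, was 15.5 in the first IgM library, 8.32 in the second IgM library and 7.43 in the second IgG1 library. The mean was 10.4 ± 4.45 (SD, n = 3 libraries of both isotypes). The first IgG1 library had no Cish peak. By −log10 p the peak ranked 107 of 2034 in the first IgM list, 104 of 1171 in the second IgM list and 178 of 1485 in the second IgG1 list, and so within the top 12% in each.

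The summits at the Cish start fell close together, within or past the STAT motif matches found there. They lay 70 bp into the gene in the first IgM library, 32 bp in the second IgM library and 18 bp in the second IgG1 library, a spread of 52 bp inside peaks of 721 to 1260 bp. The matches TTCCTGGAA and TTCTTGGAA cover 0 to 8 bp and 11 to 19 bp from the annotated start, with 2 bases between them. The summit of the second IgG1 library thus fell within the second match. Motifs were searched from 250 bases before the start to 50 bases after it. The summit of the first IgM library, 70 bp in, lay past the searched sequence. Of the 32851 promoter windows in the RefSeq table, each of 300 bases, 8.30% held at least 1 match to TTCNNNGAA and 0.457% held 2 or more. The motif reads the same on both strands. Among the 212 windows that overlapped any region with at least 2 WT IL-21 libraries and no KO or WT IL-4 library, 25.0% held 1 or more and 1.89% held 2 or more. The 1.89% stands for 4 windows, and the Cish window is 1 of them. A related pattern with 4 bases between TTC and GAA, the spacing preferred by the IL-4 factor STAT6, was found in 6.95% of all windows and 7.55% of the 212, and not in the Cish window. Windows of 1 gene can overlap, matches to the 2 patterns were counted separately, and a match is a string of letters and not a measured site.

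**Figure D2:**
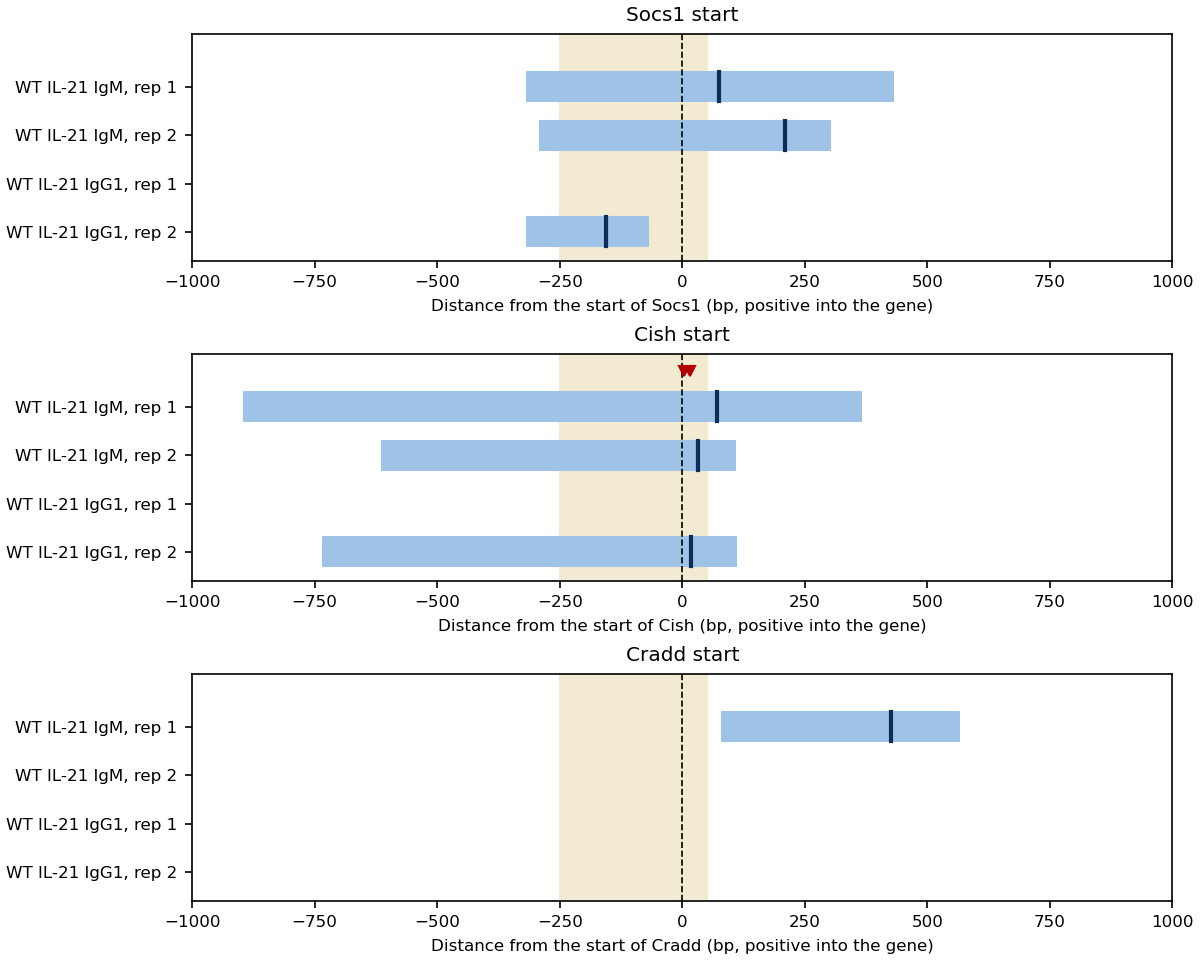
Peaks (pale bars) and summits (dark ticks) of the 4 WT libraries with IL-21 within 1000 bp of the starts of Socs1, Cish and Cradd, in bp from the start, with the 300-base promoter window shaded and TTCNNNGAA matches as triangles. At Cish the 3 summits lie 18 to 70 bp into the gene, and the matches cover 0 to 8 bp and 11 to 19 bp. At Socs1 the summits lie on both sides of the start. Matches were searched in the shaded window alone.

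The second recurrent Cish site lay 10444 bp beyond the end of the gene and 16569 bp from its start (chr9:107313004-107313681). It had the highest mean −log10 p of the 15 regions, 33.7, and is the leading site of the locus (the region with the most WT IL-21 libraries, then the highest mean −log10 p). Folds were 13.1 in the first IgM library, 7.27 in the second IgM library and 9.09 in the second IgG1 library, with a mean of 9.83 ± 3.00 (SD, n = 3). The same 3 libraries had the start peak, and again the first IgG1 library had none. The peaks ranked 97 of 2034, 112 of 1171 and 97 of 1485. Their summits spanned 76 bp.

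The fold and −log10 p of a MACS2 peak together fix a whole fragment pileup at the summit and its expected background, when 1 is added to both before the ratio is taken. What the authors used as control for the background is not given in the sources used here. By this reading the second Cish site rested on 56, 39 and 41 fragments over backgrounds of 3.34, 4.51 and 3.62 in the first IgM, second IgM and second IgG1 library. The Cish start rested on 43, 38 and 29 fragments over 1.83, 3.69 and 3.04. The smallest pileup called anywhere was 10 to 12 fragments, depending on the library. A site without a peak may hold fewer fragments than were needed there, so a missing peak sets no limit of 0 on binding.

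Between the recurrent Cish sites lay a weaker region that was also found without STAT3 (chr9:107307744-107308386, 5382 bp beyond the gene). The KO IgM library with IL-21 had a fold of 4.41 there, and the first WT IgM library with IL-21 had 4.59. Their summits were 53 bp apart. The pileups were 15 fragments in the KO library and 21 in the WT library. It is the only region at the 3 loci with peaks in both genotypes.

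Socs1 (chromosome 16, 10783808 to 10785536, minus strand, NCBI gene 12703) had 3 recurrent sites: over its start, just past its end and further downstream. The downstream region (chr16:10772037-10772601), whose best summit lay 11398 bp beyond the end and 13126 bp from the start, is its leading site. Folds were 9.96 in the first IgM library, 5.91 in the first IgG1 library and 5.20 in the second IgG1 library, with a mean of 7.03 ± 2.57 (SD, n = 3). Here the second IgM library was the one without a peak. The summits of the 3 libraries spanned 41 bp, and the pileups were 33, 21 and 20 fragments. The peak ranked 203 of 2034, 150 of 865 and 454 of 1485.

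The region just past the Socs1 end (chr16:10783054-10783535, 537 bp outside the gene) had a peak in 2 libraries. The fold was 7.45 in the first IgM library and 5.02 in the second IgG1 library, and the summits were 9 bp apart.

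The region over the Socs1 start (chr16:10785107-10785852) had the lowest mean fold of the 8 recurrent sites, taken over libraries that differed between sites. Its mean −log10 p was 10.4, above the 9.20 of the Cradd region chr10:95258196-95258818. Folds at the Socs1 start were 6.32 in the first IgM library, 3.48 in the second IgM library and 4.21 in the second IgG1 library. Their mean was 4.67 ± 1.48 (SD, n = 3). The last 2 values lay under the median fold of their own lists, 4.48 and 4.74, and these peaks ranked 651 of 1171 and 854 of 1485. The pileups were 24, 26 and 18 fragments, and the background in the second IgM library, 6.76, was the highest at any peak of the 3 loci. Summits spread over 364 bp, from 155 bp before the start to 209 bp into the gene. Neither motif was found in the 300-base window of Socs1, which says only that these letters are not in that window. The window ended 50 bases into the gene. The summits of the first and second IgM libraries, 74 and 209 bp in, lay outside it.

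The other 2 regions in the Socs1 window were found in 1 library each. The first IgM library with IL-21 had a peak of fold 5.57 (chr16:10835043-10835386). Its summit lay within Rmi2, 277 bp from an end of the span of that gene. RMI2 is a subunit of the complex that dissolves recombination intermediates. The peak lay 49507 bp from the Socs1 span, just inside the window. The nearest region outside the window, 58527 bp from the span, had peaks in 2 WT IL-21 libraries at folds of 5.06 to 5.86. The first IgG1 library with IL-4 had a peak of fold 4.97 between Clec16a and Socs1 (chr16:10759406-10759717), the only peak of the WT IL-4 libraries at the 3 loci. No region had the testis genes Tnp2, Prm1, Prm2 or Prm3, which neighbour Socs1, as its nearest gene.

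Every region of the chromosome 10 locus lay within the span of Cradd (95174739 to 95324138, minus strand, NCBI gene 12905). None lay in or within 50000 bp of Socs2 (95383903 to 95417321, NCBI gene 216233). The nearest was 59847 bp from the Socs2 span, at the Cradd start, and the nearest recurrent one was 69665 bp away. With windows of 100000 bp the Socs2 window would take in these regions of Cradd. On its far side it would take in 2 regions near Ube2n, with peaks in the KO IgM library with IL-21 at a fold of 4.63 and in 1 KO and 1 WT library at folds of 5.63 to 6.32. Which gene, if any, the Cradd sites act on was not measured.

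The leading site of Cradd (chr10:95312727-95314238), 10098 bp into the gene from its annotated start, was the only region of the 15 that was called in every WT library with IL-21 (4 of 4). Folds were 11.1 and 6.61 in the IgM libraries and 10.2 and 6.34 in the IgG1 libraries, with a mean of 8.55 ± 2.43 (SD, n = 4). In each isotype 1 library was high and 1 low, so the isotypes overlapped. The peak ranked 164 of 2034, 161 of 1171, 46 of 865 and 206 of 1485, and so within the top 13.9% of every list. It rested on 35, 30, 36 and 31 fragments. The summits spread over 869 bp, more than at any other recurrent site, inside a merged region of 1512 bp. The summit of the second IgG1 library lay 10967 bp from the start, while those of the other 3 lay between 10098 and 10344 bp from it.

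Deeper in the gene, 3 regions lay 59178 to 65721 bp from the Cradd start. The middle one (chr10:95261370-95262828) had folds of 9.87 in the first IgM library, 3.39 in the second IgM library and 10.1 in the second IgG1 library, a mean of 7.79 ± 3.81 (SD, n = 3). The low value in the second IgM library ranked 988 of 1171 in its list, whereas the other 2 ranked 167 of 2034 and 115 of 1485. The region beyond it (chr10:95258196-95258818) had folds of 4.94 in the first IgM library, 4.77 in the first IgG1 library and 6.0 in the second IgG1 library, a mean of 5.24 ± 0.669 (SD, n = 3), with summits within 50 bp. The third (chr10:95264661-95265248) had a peak in the first IgM library alone, with a fold of 6.54.

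The remaining Cradd regions were found in 1 library each. The first WT IgM library with IL-21 had a fold of 6.71 near the start (chr10:95323572-95324056) and of 6.0 further in (chr10:95228962-95229546). The KO IgM library with IL-4 had a fold of 5.15 in a region of its own (chr10:95302621-95302965). The peak near the start had its summit 425 bp into the gene and did not reach the 300-base promoter window of Cradd, in which neither motif was found. The promoter table held 1 window each for Socs1, Cish and Cradd.

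**Figure D3:**
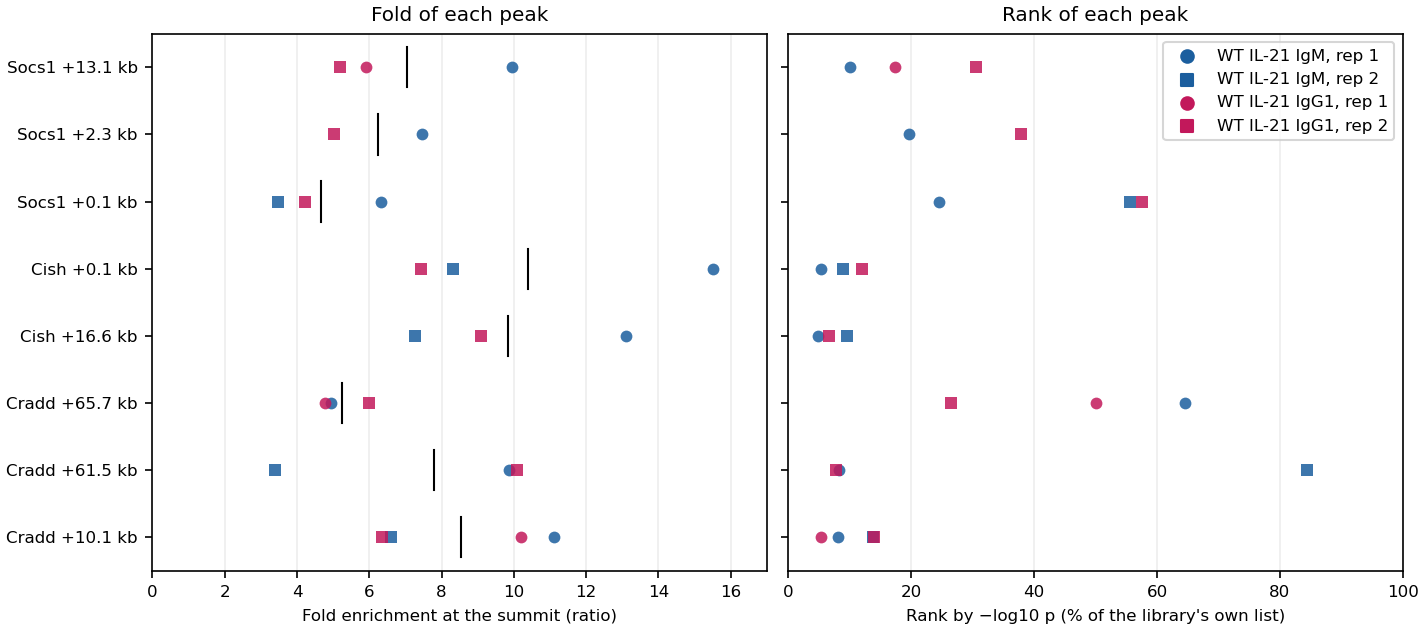
Fold enrichment (left, with the mean as a black line) and rank by −log10 p as a percentage of the library's own list (right) for each peak at the 8 recurrent sites in the WT libraries with IL-21, with sites named by distance from the gene's start. The Cish sites rank within the top 12% wherever they were called, while the Socs1 start ranks between 24.5% and 57.5%. Peaks of Cradd reach 84.4% (+61.5 kb, second IgM library) and 64.6% (+65.7 kb, first IgM library).

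The 4 WT libraries with IL-21 did not contribute alike. Of the 8 recurrent sites, the first IgM library had 8, the second IgM library 5, the first IgG1 library 3 and the second IgG1 library 8. Each of the 8 was thus called in both isotypes, and none of them was found in IgM cells or in IgG1 cells alone. All 5 regions that had a peak in a single WT IL-21 library were peaks of the first IgM library. The lists of these libraries held 2034, 1171, 865 and 1485 peaks, which is the same order as their counts at the loci (13, 5, 3 and 8 peaks).

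List length moved with these counts, so they were also taken over the best 623 peaks of each list, the length of the shortest. The KO libraries with IL-21 then had 1 and 0 peaks at the 3 loci in IgM and IgG1 cells, and the KO libraries with IL-4 had 1 and 0. The WT libraries with IL-21 had 9 and 3 in IgM cells and 3 and 7 in IgG1 cells. The WT libraries with IL-4 had 0 and 0 in IgM cells and 1 and 0 in IgG1 cells. The lowest count of a WT library with IL-21 was therefore above the highest of any other library at equal length, a direction that the choice of the genes already favoured. Of the 8 recurrent sites, the WT libraries with IL-21 then had 7, 3, 3 and 7, in the same order as above. What set the libraries of 1 group apart was not tested.

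Folds at the recurrent sites were moderate for their lists. The median fold was 5.30 and 4.48 in the IgM lists with IL-21 and 4.71 and 4.74 in the IgG1 lists with IL-21, and the highest folds of those lists were 117, 66.7, 60.1 and 63.3. Within the first IgM library, which had a peak at all 8, the order began with Cish start (15.5), Cish downstream (13.1) and the leading Cradd site (11.1). Socs1 downstream (9.96), the middle Cradd site (9.87) and Socs1 end (7.45) followed. Last came Socs1 start (6.32) and the recurrent Cradd site at chr10:95258196-95258818 (4.94). In the second IgG1 library, which also had all 8, the middle Cradd site came first (10.1) and the Socs1 start last (4.21). The 2 libraries thus did not give the same order. A single peak carries no error of its own, so neighbours in these orders cannot be said to differ.

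For each leading site, the 3 regions of the series with peaks in the same libraries and the nearest folds were listed. Each is named by the protein-coding gene nearest to its best summit, and unlikeness is the distance between folds on the log2 scale. Regions with a best summit over 50000 bp from every such gene were not listed. They do count in the totals of regions with peaks in the same libraries. For Socs1 these summits lay within Ngdn, 70 bp from Glt28d2 and within Irf9, with an unlikeness of 0.15 to 0.44 over 3 libraries, out of 35 regions with peaks in the same libraries. For Cish they lay 305 bp from Nsmce1, 5132 bp from Tha1 and 6096 bp from Themis2, with an unlikeness of 0.25 to 0.29 over 3 libraries, out of 105. The region nearest to Tha1 (chr11:117878238-117878889) had a mean fold of 10.7. For Cradd they lay within Katnal1, 911 bp from Rtn2 and within Sar1a, with an unlikeness of 0.63 to 0.70 over 4 libraries, out of 91. Likeness over 3 or 4 libraries is a description of the lists.

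Windows with several recurrent regions were uncommon. Of 21887 protein-coding genes, 1028 had 1 such region in their span plus 50000 bp, 144 had 2, 41 had 3, 3 had 4 and 2 had 6. Cish had 2, Socs1 and Cradd had 3 each, and Socs2 had 0. At least 3 such regions were found in 0.210% of gene windows, and at least 2 in 0.868%. The members were chosen with these peaks known, so nothing is read from their place among all genes. Windows grow with the gene and neighbours share regions, and Cradd, at 149400 bp, is far longer than Socs1 at 1729 bp.

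**Figure D4:**
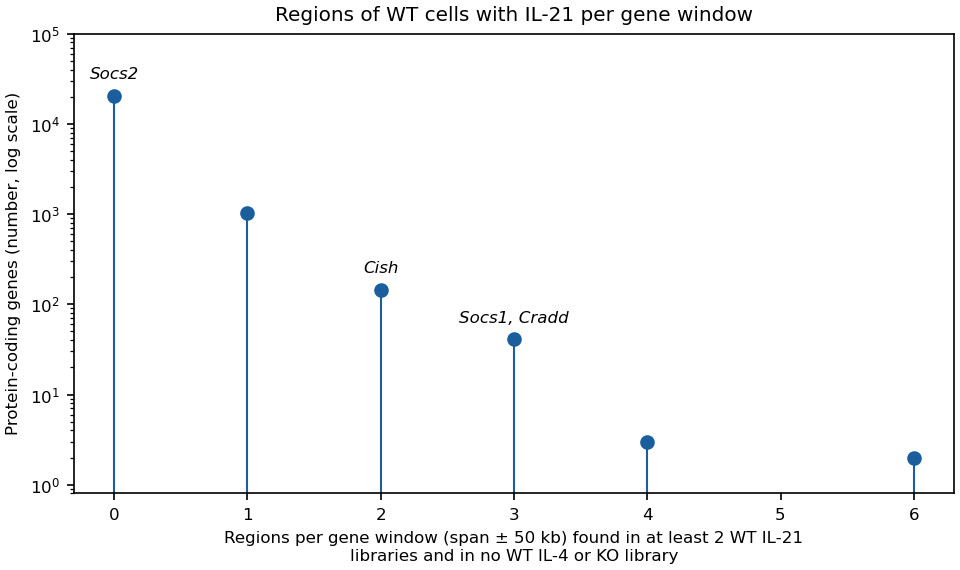
Number of protein-coding genes (log scale) against the number of regions in their window that were found in at least 2 WT libraries with IL-21 and in no WT library with IL-4 and no KO library. Socs2 is among the 20669 genes with none, Cish among the 144 with 2, and Socs1 and Cradd are among the 41 with 3.

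Of the 5 other genes of the SOCS family, Socs3 had recurrent regions (6, the best with a fold of 18.1 ± 6.47, SD, n = 4), and Socs4, Socs5, Socs6 and Socs7 had 0. The median over these 5 genes was 0, as over all genes. Of the 4 genes of the ligase that SOCS boxes recruit (Elob, Eloc, Cul5 and Rnf7) 0 had one, and of the PIDDosome partners of CRADD, Pidd1 and Casp2, 0 had one. Among 12 other inhibitors of cytokine signalling 5 did, all of them phosphatases: Ptpn1, Ptpn2, Ptpn6, Ptpn11 and Ptprc, with mean folds of 5.88 to 9.77 at their best region. The best summit in that of Ptpn6 lay 36730 bp from the gene and nearer to Lpcat3, and in that of Ptpn11 it lay 19053 bp from the gene. The best regions of Ptpn2 and Ptpn11 were called in 2 libraries each. Over all protein-coding genes, 5.56% had a recurrent region in their window. The product of Ptpn11, SHP2, is also known to promote growth factor signalling. The PIAS proteins, Sh2b3, Cbl and Cblb had 0.

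Among 9 receptors, kinases and STATs of the IL-21 and IL-4 pathways, 4 had a recurrent region: Jak1, Stat3, Stat5a and Stat5b. The best region in the Stat3, Stat5a and Stat5b windows was the same one, within Stat5b, with a fold of 6.99 ± 2.55 (SD, n = 3). It was the only recurrent region in the Stat3 window, with its best summit 28190 bp from Stat3, and the only one in the Stat5a window. The best region of Jak1 had its best summit 27778 bp from the gene and was called in 2 libraries. Il21r, Il4ra, Il2rg, Jak3 and Stat6 had 0 of this kind. Of 4 B cell genes (Cd79a, Cd79b, Ms4a1 and Pax5) and 6 genes of T, NK and myeloid cells (Cd3e, Cd3g, Ncr1, Lyz2, Csf1r and Itgam), 0 had one. These lists are small, were drawn up with earlier results known, and were read against the 5.56% of all genes without a test.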

How the data were processed

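Members and gene lists were chosen with earlier results of these data known, so no test was made. Tools named in the submitters' processing notes, without their roles, are Trimmomatic 0.39, Bowtie2 2.4.1, MACS2 2.2.7.1 and deepTools 3.5.1, with build mm10. No source used here gives the control or how the yeast spike-in was used. The authors deposited 1 peak list per library, with a fold enrichment (a ratio), a −log10 p, a −log10 q, a score (10 times the −log10 p, cut to a whole number, in 13499 of the 13513 peaks used) and a summit offset. Of 13908 peaks, 13513 were kept, those on chromosomes 1 to 19 and the sex chromosomes (623 to 2034 per library). Regions are unions of peaks sharing at least 1 bp. In a region with several peaks of a library, the one with the highest −log10 p was taken. Ranks are by −log10 p within a list. With 1 added to pileup and background, a whole pileup within 0.001 of the −log10 p was found for 99.9% to 100% of peaks with a −log10 p under 60. The merging and the pileup step were checked on simulated data. Depth is otherwise unknown. Gene spans, starts and promoter sequences came from RefSeq tables on GRCm38.p6, the assembly behind mm10, without exons, so introns, exons and UTRs are not given. Positions are 1-based. The sites shown by name followed a rule: the members' regions, the 3 nearest regions for each leading site, and list genes with a recurrent region. Some genes of the planned lists are not reported here. Python 3.11.15, NumPy 2.4.6, SciPy 1.17.1 and matplotlib 3.10.9 were used.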

Additional observations from a re-analysis of the deposited data

Results flagged for a closer look

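Among the WT libraries with IL-4, the first IgG1 library had 1 peak at the 3 loci and the other 3 had 0. Of 6 sets of 4 libraries examined, this was the 1 set in which a library stood apart from the rest. Chance picks out about 1 set in 20 where values differ freely, but that rate does not hold for tied counts: with 3 libraries at 0, a single peak in the fourth is enough. The value is therefore given as a description.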

How the results depend on the processing

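The 15 regions became 11 with windows of 10000 bp and 19 with 100000 bp, and the 8 recurrent sites became 6 and 9. With windows of 10000 bp the leading sites of Socs1 and Cish lie outside, so that 0 libraries had them. The recurrent sites numbered 8 when peaks had to share 50% of the shorter peak, 8 at a −log10 q of at least 2, 6 at a −log10 q of at least 5, 6 at a fold of at least 5 and 7 at equal list lengths. Leaving out each WT replicate in turn gave 11 to 15 regions, 7 to 8 recurrent sites and mean folds of 5.56 to 7.94 at the leading Socs1 site, 8.18 to 11.1 at that of Cish and 7.71 to 9.29 at that of Cradd. Without the first IgM library with IL-21, Cradd had 4 regions, against 7. Without the first IgG1 library with IL-21, the Socs1 start replaced the downstream region as leading site. Of the 9 regions named for likeness, 7 were named again at equal list lengths and 4 when ranks took the place of folds, for which the cause was not tested. No paired analysis was made, as no result here comes from a test. The WT groups share replicate numbers, but whether these mark pairs is not given in the sources used here. Depth limits the absence of a peak, which needs at least 10 to 12 fragments to be called.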
